A study of Mus musculus with 13 samples.

Results

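The genes described here are the splicing factors of mouse keratinocytes, the CLK kinases that act on them, and the nuclear noncoding RNAs Malat1 and Neat1. They were chosen by name alone: symbols beginning Hnrn, Srsf, Sfrs, Sf3a, Sf3b or Snrp, together with Clk1 to Clk4, Tra2a, Tra2b, Malat1 and Neat1. This gave 52 of the 12394 genes named on the arrays, each followed through its brightest probe set. They comprise 9 SR protein genes, 2 Tra2 genes, 4 CLK genes, 18 hnRNP genes, 9 genes of the SF3a and SF3b complexes, 8 core snRNP genes and 2 nuclear noncoding RNAs.

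Primary mouse keratinocytes had been infected with a retrovirus encoding DNp63alpha, the p63 isoform that lacks the amino-terminal activation domain, joined to an estrogen receptor domain. Tamoxifen was added to induce the fusion protein, and RNA was taken at 20 min intervals for 4 h, with 1 array at each of 12 times and 1 array of untreated cells. Every culture, the untreated one included, carried the fusion, and no group of cells without it or without tamoxifen over the same hours was analysed here. There were no replicate arrays, so the spread between arrays at different times stands in for replicate error throughout.

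Splicing is carried out by the spliceosome, whose U1, U2, U4 and U5 particles each carry a ring of Sm proteins encoded by most of the Snrp genes, while the SF3a and SF3b complexes belong to the U2 particle and hold it on the branch site. SR proteins and the related Tra2 proteins bind exonic enhancers and favour exon inclusion, and many hnRNP proteins oppose them or bind introns. CLK kinases phosphorylate SR proteins and release them from nuclear speckles, the bodies in which Malat1 RNA resides, whereas Neat1 RNA is the scaffold of paraspeckles.

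Array medians lay between 237.4 and 251.5 intensity units, the Spearman correlation between any 2 arrays was 0.9825 or more, and the 3' to 5' ratio of the Gapdh control probe sets stayed between 0.8994 and 0.9372. All 10 keratinocyte markers examined, such as Krt5 and Krt14, passed the filter on low levels and ranked at the 84.9th percentile of mean level or above. Of the markers of other cells, 7 of 8 melanocyte genes passed, with Dct at the 93.1st percentile, against 2 of 10 fibroblast genes, 2 of 8 immune genes, 0 of 4 endothelial genes and 1 of 5 neuronal genes. The summed intensity of the tested melanocyte markers ranged from 6217 to 7500 over the arrays, that of the 2 tested fibroblast markers from 1167 to 1619 and that of the 2 tested immune markers from 745.4 to 1022. Over the course Cd68, an immune marker, fell by 0.55 (log2, limma adjusted p = 0.000979), Mitf, a melanocyte factor, fell by 0.35 (0.00699), and Vim, a fibroblast marker, rose by 0.33 (0.0481), while no other tested marker of another cell type was called by the line. The part of such cells in the results was not tested. Over all 7436 genes tested, 8.61% had their 2 lowest values in the 200 and 220 min arrays, and several of the members below depend on those arrays.

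Promoters are shown for the 3 CLK genes with an entry in the RefSeq table used, for Malat1, which changed most, and for Snrpg, a rising Sm gene, so that falling and rising members can be set side by side. Each sequence runs from 250 bases before to 50 bases after the annotated start, 5′ to 3′ on the gene's strand, in GRCm38.p6. They lie at chr3:89164545-89164844 on the plus strand for Clk2, chr9:57765065-57765364 on the minus strand for Clk3, chr11:51262864-51263163 on the plus strand for Clk4, chr19:5802623-5802922 on the minus strand for Malat1 and chr6:86371290-86371589 on the plus strand for Snrpg. Capitals mark every match, on either strand, to the 6 motifs searched: the E-box CACGTG, the cAMP response element TGACGTCA, the AP-1 site TGANTCA, the ETS site CCGGAAG, the NRF1 site and the CCAAT box CCAAT, which reads ATTGG on the other strand.
Clk2: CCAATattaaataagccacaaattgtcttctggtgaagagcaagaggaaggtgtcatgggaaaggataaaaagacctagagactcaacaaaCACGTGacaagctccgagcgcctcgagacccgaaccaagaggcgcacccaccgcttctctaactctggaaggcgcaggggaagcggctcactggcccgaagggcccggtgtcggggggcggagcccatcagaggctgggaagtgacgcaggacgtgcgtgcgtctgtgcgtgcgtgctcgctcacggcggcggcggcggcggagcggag
Clk3: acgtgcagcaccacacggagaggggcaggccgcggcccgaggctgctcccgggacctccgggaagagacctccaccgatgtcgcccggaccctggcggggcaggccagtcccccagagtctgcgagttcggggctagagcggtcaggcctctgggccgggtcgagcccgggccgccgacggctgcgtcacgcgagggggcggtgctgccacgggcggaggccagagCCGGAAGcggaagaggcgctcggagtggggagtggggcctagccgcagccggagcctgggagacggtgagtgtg
Clk4: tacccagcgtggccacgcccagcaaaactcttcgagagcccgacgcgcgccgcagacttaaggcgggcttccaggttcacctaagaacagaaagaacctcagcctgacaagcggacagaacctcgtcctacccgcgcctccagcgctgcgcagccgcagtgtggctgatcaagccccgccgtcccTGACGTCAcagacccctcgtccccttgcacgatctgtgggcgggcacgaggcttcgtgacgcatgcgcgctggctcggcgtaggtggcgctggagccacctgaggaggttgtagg
Malat1: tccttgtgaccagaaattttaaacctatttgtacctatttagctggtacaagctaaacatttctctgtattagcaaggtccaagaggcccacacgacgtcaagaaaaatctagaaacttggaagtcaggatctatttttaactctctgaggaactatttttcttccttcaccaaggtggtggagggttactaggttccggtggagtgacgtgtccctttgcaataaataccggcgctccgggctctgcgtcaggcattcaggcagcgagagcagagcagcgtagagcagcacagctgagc
Snrpg: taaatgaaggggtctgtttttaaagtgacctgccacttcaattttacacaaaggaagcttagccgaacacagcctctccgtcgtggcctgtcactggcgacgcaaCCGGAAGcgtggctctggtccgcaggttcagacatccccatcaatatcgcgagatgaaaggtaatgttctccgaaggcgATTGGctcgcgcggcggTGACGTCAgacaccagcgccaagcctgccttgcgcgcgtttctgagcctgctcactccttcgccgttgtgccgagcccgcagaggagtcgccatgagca

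The Clk2 promoter held a CCAAT box and an E-box, that of Clk3 an ETS site, that of Clk4 a cAMP response element, and that of Snrpg an ETS site, a CCAAT box on the opposite strand and a cAMP response element. None of the 6 letter strings was in the Malat1 window. The table held 61 promoters for 45 of the 52 genes, and some windows of the same gene overlap, so a match can count more than once. The ETS letters were in 34.4% of these promoters, against 18.9% of the 7819 promoters of all tested genes and 8.86% of all 32851 promoters, and the CCAAT letters were in 44.3%, 37.2% and 37.4% in the same order. The cAMP response element was in 3 of the 61, belonging to Clk4, Tra2a and Snrpg, or 4.92%, against 3.13% of promoters of tested genes. E-box letters were in 8.20%, against 10.4% of promoters of tested genes, AP-1 letters in 3.28%, against 5.21%, and NRF1 letters in 1.64%, against 1.98%. Counted by gene, the ETS letters were in 16 of 45 and the CCAAT letters in 22 of 45. No match to one motif overlapped a match to another in the members' promoters, and a match is a description of the sequence only.

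All 52 genes passed the filter on low levels and entered the tests. A straight line in time, fitted with limma to log2(intensity + 16), called 18 of the 52 at an adjusted p under 0.05, 10 rising and 8 falling, or 34.6%. Among all 7436 genes tested the same fit called 39.9%, with 22.3% rising and 17.6% falling, so the share of splicing genes called was near that of the arrays as a whole. The groups differed in composition: all 4 CLK genes fell, 5 of 9 SR genes moved in both directions, 3 of 9 SF3 genes rose, 2 of 8 core snRNP genes rose and 1 fell, 2 of 18 hnRNP genes rose, Malat1 fell, and neither Tra2 gene was called. Differences between groups were described by these counts and were not tested.

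**Figure D1:**
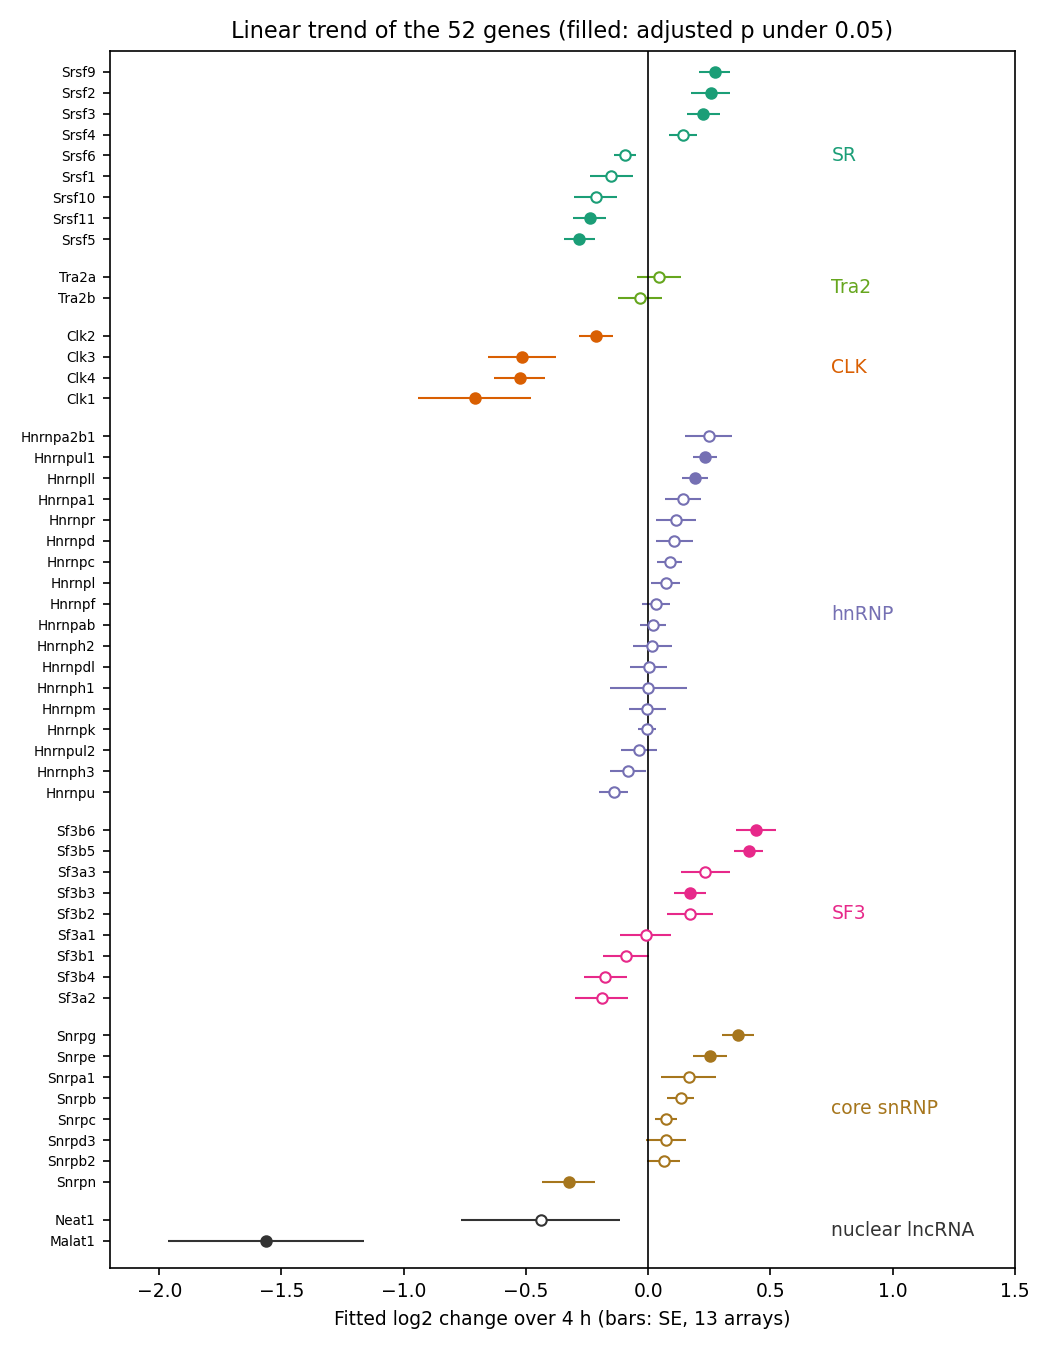
Fitted log2 change over 4 h (x axis) of each of the 52 genes, grouped by family, with bars giving the SE of the fit over 13 arrays and filled points marking an adjusted p under 0.05. The 4 CLK genes and Malat1 lie to the left of zero, most hnRNP genes lie close to zero with open points, and the filled SF3 points lie to the right.

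Malat1, on chromosome 19, had the largest fitted change of the 52. Its brightest probe set, 1418188_a_at, read 1054 in untreated cells and then 431, 569.6, 296.7, 413.9, 566.6, 559.7, 366.5, 260, 358.9, 177.6, 148.1 and 362.7 at 20 to 240 min. The untreated array was above all 12 later ones, the 200 and 220 min arrays were the lowest, and the 240 min array was back near the level of 180 min. The fitted change over 4 h was -1.56 ± 0.40 (log2, SE, 13 arrays), a 2.96-fold fall on the log2(intensity + 16) scale, with a limma adjusted p of 0.00648. In such bulk RNA, fewer cells of a type and less RNA per cell cannot be told apart.

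All 5 probe sets of Malat1 fell, by 0.85 to 1.87 on the log2 scale over 4 h, with adjusted p-values between 0.00137 and 0.00832 when every probe set was tested on its own. Their pairwise Spearman correlations over the 13 arrays, which share the same RNA, lay between 0.78 and 0.989. The call held without the untreated array, at an adjusted p of 0.0419, but not without the 200 and 220 min arrays together, at 0.0631. Malat1 was not called by the spline, at an adjusted p of 0.076, nor by the late (180 to 240 min) against early (20 to 80 min) comparison, in which it averaged 8.02 ± 0.63 late and 8.76 ± 0.37 early (log2, SD, 4 arrays each; limma adjusted p = 0.0885).

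Neat1, which lies beside Malat1 on the same chromosome, did not pass the line. Its probe set 1428083_at read 2534 in untreated cells and 1170, 1202, 786.5, 1079, 1280, 1361, 1610, 1189, 1380, 896.3, 833.6 and 1320 afterwards. As for Malat1, the untreated array was the highest, but the later arrays had no direction: the fitted change was -0.44 ± 0.33 (SE; limma adjusted p = 0.300), and the slope without the untreated array was 0.0019 per hour (limma adjusted p = 0.987). Neat1 averaged 10.10 ± 0.37 late and 10.05 ± 0.28 early (log2, SD, 4 arrays each). Between Malat1 and Neat1 the Spearman correlation was 0.571 over 13 arrays and 0.455 over the 12 arrays after tamoxifen, as a description of samples that share their time order.

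**Figure D2:**
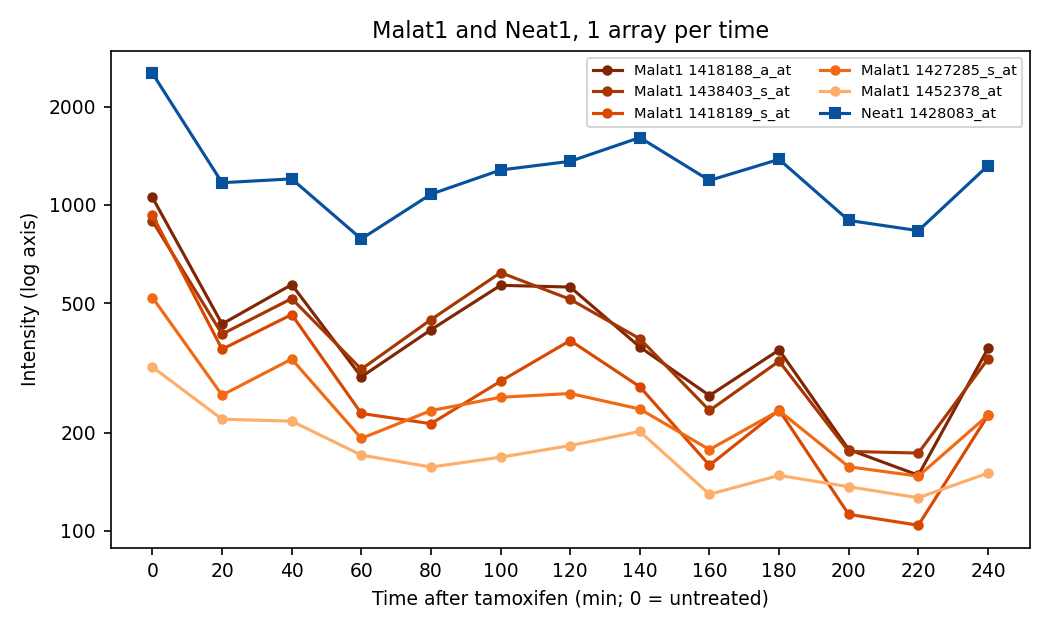
Intensity (log axis) of the 5 Malat1 probe sets and the Neat1 probe set against time after tamoxifen, 1 array per time, with the untreated array at 0. Every line starts at its highest value, and the brightest Malat1 probe set ends at 362.7 at 240 min after a low of 148.1 at 220 min. Levels of different probe sets are not comparable.

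Each of the 4 CLK genes fell, but along different courses. Clk3, on chromosome 9, read 758.1, 780.1, 849.6 and 777.7 from 0 to 60 min and 534.1, 538.8, 548.4, 622.1, 605.4, 544.6, 609.8, 565.6 and 548.6 from 80 to 240 min. It was lower in each of the 9 arrays from 80 min on than in any of the 4 arrays up to 60 min, with averages of 9.19 ± 0.08 and 9.66 ± 0.07 (log2, SD, 9 and 4 arrays). The difference of -0.47 ± 0.05 (SE) had a limma adjusted p of 4.81e-06, and among the 9 later arrays the fitted slope was 0.0233 per hour (limma adjusted p = 0.726).

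Clk2, on chromosome 3, was also lower from 80 min, but by less and with a different timing. It changed little between 60 and 80 min, from 585.9 to 571.1, and dropped to 495.1 at 100 min. It read 591.9, 595.4, 592.6 and 585.9 up to 60 min and 571.1, 495.1, 525.2, 505, 523.2, 521.6, 500.7, 556.3 and 519.8 from 80 min. The groups again did not overlap, with averages of 9.08 ± 0.07 from 80 min and 9.25 ± 0.01 up to 60 min (log2, SD, 9 and 4 arrays; step -0.17 ± 0.04 SE, limma adjusted p = 0.00296).

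Clk1 and Clk4, a closely related pair, had a more gradual course with a low at 200 min. Clk1, on chromosome 1, read 1122, 1053, 905.4, 743.1, 884.2, 931.3, 1060, 912.8, 650.3, 794, 453.4, 574.9 and 890 from 0 to 240 min. The untreated array was the highest and the 200 and 220 min arrays the lowest, while at 240 min Clk1 was within the range of the first hour. Clk4, on chromosome 11, read 320.2, 277.7, 266.8, 233.6, 229.5, 229.6, 242.1, 235.9, 212.2, 231.1, 170.7, 197.5 and 220.1 over the same times, with the same highest and lowest arrays. Its second probe set fell too, by 0.34 on the log2 scale (limma adjusted p = 0.0157, every probe set tested on its own).

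Over 4 h the line gave -0.71 ± 0.23 for Clk1, -0.53 ± 0.10 for Clk4, -0.52 ± 0.14 for Clk3 and -0.21 ± 0.07 for Clk2 (log2, SE, 13 arrays). These are falls of 1.64-fold, 1.44-fold, 1.43-fold and 1.16-fold, with limma adjusted p-values of 0.0243, 0.00127, 0.00887 and 0.0233. The median over the 4 genes was -0.52, against 0.02 over all genes tested. Clk1 lost its call without the 0, 20 or 220 min array, with adjusted p-values of 0.0578 to 0.0765, and Clk2 lost its call without the 0, 20 or 40 min array, with 0.0533 to 0.0670. Clk1 was also lost without the 200 and 220 min arrays together, at 0.170, whereas Clk4 then had 0.00702.

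The late window lay below the early one for Clk2, Clk3 and Clk4 but not past the threshold for Clk1. The differences were -0.16, -0.35, -0.28 and -0.43 (log2), with limma adjusted p-values of 0.0224, 0.0399, 0.0304 and 0.114. Each of the first 3 calls rested on single arrays: adjusted p-values reached 0.0515 to 0.0674 for Clk2 without the 20, 40, 200 or 240 min array, 0.0506 to 0.125 for Clk3 without the 20, 40, 60, 120, 140, 180, 220 or 240 min array, and 0.0736 to 0.0987 for Clk4 without the 20, 40, 200 or 220 min array.

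**Figure D3:**
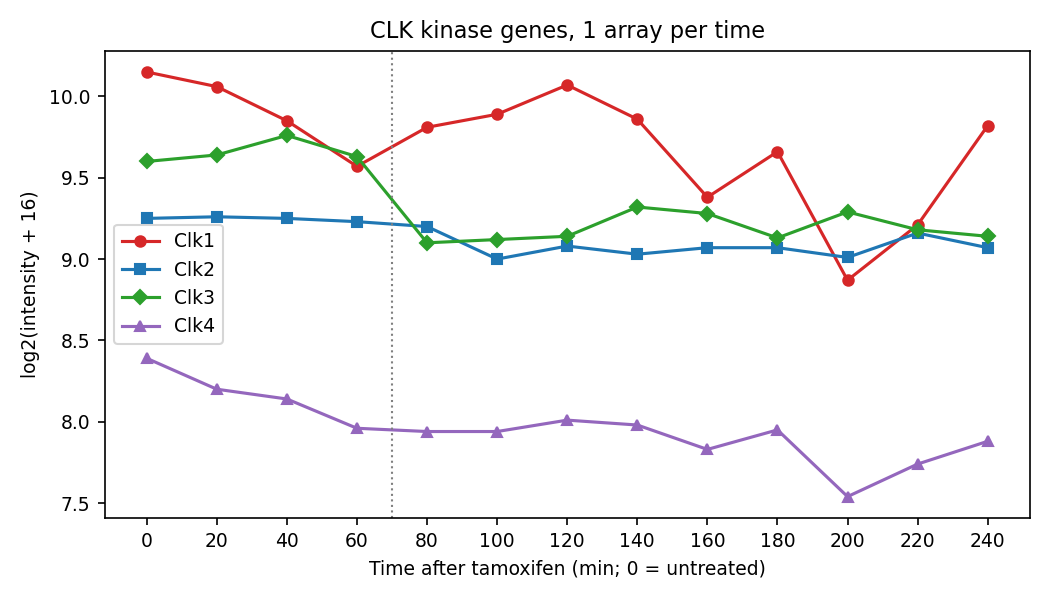
Level of the 4 CLK genes as log2(intensity + 16) against time after tamoxifen, 1 array per time, with the dotted line drawn between the 60 and 80 min arrays. Clk3 lies lower on every array right of the line, Clk2 by less, and Clk1 and Clk4 have their lowest value at 200 min. Levels of different genes are not comparable here.

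Clk1 and Clk4 varied together and with Malat1. Over the 13 arrays the Spearman correlation was 0.835 between Clk1 and Clk4, 0.901 between Malat1 and Clk1 and 0.797 between Malat1 and Clk4, but 0.104 between Clk1 and Clk3. The arrays share RNA, scaling and time order, and Clk1 ranked 55th among all genes tested in closeness to Malat1. Clk4 ranked 240th in closeness to Malat1 and 143rd in closeness to Clk1. The 5 genes most like Malat1 were Cir1 at 0.973, Ubxn2a at 0.973, Taok1 at 0.967, Vps26a at 0.967 and B230219D22Rik at 0.967. The 5 most like Clk1 were Tmed7 at 0.956, Ctage5 at 0.956, Zfp292 at 0.951, Arfgef1 at 0.951 and Zfp281 at 0.951.

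The SR genes split into a rising and a falling set. Srsf9, which acts on alternative splice site choice, rose: it read 2128, 2212, 2087, 2357, 2463, 2529, 2372, 2509, 2653, 2571, 2472, 2615 and 2497 from 0 to 240 min. All 9 arrays from 80 min were above all 4 up to 60 min, with averages of 11.31 ± 0.05 and 11.11 ± 0.08 (log2, SD, 9 and 4 arrays; limma adjusted p = 0.000624). Srsf2, also known as SC35 and a classical marker of nuclear speckles, read 3110, 3147, 2865, 3460, 3493, 3553, 3607, 3706, 3862, 3804, 3565, 3705 and 3373. Its highest values fell at 160 and 180 min and its lowest at 40 min, and it had the smallest spline adjusted p of the SR genes, 0.00655. Srsf3, an SR protein that also takes part in RNA export, ranged from 3672 to 4345 from 80 min on and from 3359 to 3930 up to 60 min.

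Fitted changes over 4 h were 0.27 ± 0.06 for Srsf9, 0.26 ± 0.08 for Srsf2 and 0.23 ± 0.07 for Srsf3 (log2, SE), with limma adjusted p-values of 0.00345, 0.0191 and 0.0158. For Srsf3, 4 of 6 probe sets rose when tested on their own, and for Srsf2, 1 of 4. Without the untreated array the call of Srsf3 was lost at 0.0574 and that of Srsf2 at 0.0631. Srsf2 was also lost without the 20 min array, at 0.0514. The late against early call of Srsf9 (0.16, adjusted p = 0.0456) was lost without the 20, 40, 100, 140, 180, 200, 220 or 240 min array, at 0.0541 to 0.138.

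Srsf5 and Srsf11 fell. Srsf5, an SR protein that binds purine-rich enhancers, read 5284, 4790, 5381, 4978, 4536, 5005, 5100, 4387, 4590, 4577, 4585, 4157 and 4288, and its lowest values were at 220 and 240 min. Its fitted change was -0.28 ± 0.06 (limma adjusted p = 0.00262), a 1.22-fold fall. Srsf11 read 1776 in untreated cells, between 1495 and 1580 at most later times, and 1333 and 1332 at 200 and 220 min, with a fitted change of -0.24 ± 0.07 (limma adjusted p = 0.0114). That call was lost without the untreated array, at 0.0698, and without the 200 and 220 min arrays, at 0.103.

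The other 4 SR genes were not called by the line. Srsf10 had a fitted change of -0.21 (adjusted p = 0.0636) and Srsf1 of -0.15 (0.190), with all 4 and all 6 of their probe sets sloping downwards but none called. Srsf4 and Srsf6, named here after their values were seen, passed the comparison of arrays from 80 min with those up to 60 min, Srsf4 by 0.12 (adjusted p = 0.0111) and Srsf6 by -0.08 (0.0296). The other 2 probe sets of Srsf6 sloped upwards over the course, neither called. The median fitted change over the 9 SR genes was -0.09, but it was 0.03 when all probe sets of a gene were averaged and 0.01 without the 200 and 220 min arrays, so the group had no settled direction.

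Tra2a and Tra2b, which work with SR proteins at exonic enhancers, had fitted changes of 0.04 ± 0.09 and -0.03 ± 0.09 (log2, SE; limma adjusted p = 0.723 and 0.795). Tra2a ranged from 1197 at 100 min to 1572 at 180 min, and Tra2b from 2439 at 200 min to 3272 at 160 min. Averages of Tra2b were 11.54 ± 0.13 from 80 min and 11.54 ± 0.05 up to 60 min (log2, SD, 9 and 4 arrays).

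Few hnRNP genes moved. Only Hnrnpul1 and Hnrnpll were called by the line, 2 of 18 or 11.1%, both rising, against 39.9% of all genes tested. The median size of the fitted change was 0.08 (log2), against 0.16 over all genes tested. Without the 200 and 220 min arrays 4 were called, all rising, against 34.3% of all genes. The median change of the group was then 0.11, against 0.03 with them. Quantile normalization and averaged probe sets each gave 3 rising, against 40.7% and 40.1% of all genes. Hnrnpul1, an RNA binding protein also linked to DNA damage signalling, read 1532, 1481, 1525, 1556, 1600, 1732, 1647, 1629, 1673, 1698, 1772, 1752 and 1732 from 0 to 240 min. From 80 min every array was above every earlier one, and the fitted change was 0.23 ± 0.05 (limma adjusted p = 0.00187), a 1.18-fold rise. Hnrnpll, known in mouse lymphocytes for its part in Ptprc splicing, ranged from 1618 to 1845 from 80 min and from 1580 to 1708 up to 60 min, with a fitted change of 0.19 ± 0.05 (limma adjusted p = 0.0108). Both of its probe sets rose.

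Hnrnpa2b1, which binds nuclear RNA and travels with RNA granules, missed the line but passed the spline. It read 3052, 3013, 2909, 3557, 3568, 3453, 3676, 3793, 4010, 3856, 3388, 3329 and 3570, with its highest value at 160 min and lower values on both sides (line 0.25 ± 0.10, limma adjusted p = 0.0527; spline adjusted p = 0.0138). All 4 of its probe sets sloped upwards, and 0 were called on their own. Without the 200 and 220 min arrays the line did call Hnrnpa2b1, at 0.095 per hour (limma adjusted p = 0.00896). So did the line with the Gapdh 3' to 5' ratio as a covariate (limma adjusted p = 0.0201). Hnrnpa1, a classical antagonist of SR proteins, passed the spline alone, with an adjusted p of 0.0366. It had a highest value of 2203 at 200 min and a fitted change of 0.14 (line adjusted p = 0.131). Of its 3 probe sets, the other 2 sloped downwards, and 1436549_a_at fell by 0.31 (limma adjusted p = 0.0196, every probe set tested on its own), so its probe sets give no single direction.

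By their brightest probe sets, the remaining 14 hnRNP genes were not called by the line, the spline or the step. They are Hnrnpab, Hnrnpc, Hnrnpd, Hnrnpdl, Hnrnpf, Hnrnph1, Hnrnph2, Hnrnph3, Hnrnpk, Hnrnpl, Hnrnpm, Hnrnpr, Hnrnpu and Hnrnpul2. Their fitted changes lay between -0.14 for Hnrnpu and 0.11 for Hnrnpr. Hnrnpk was the steadiest by its SE of 0.04 on a change of 0.00, whereas Hnrnph1 read 1517 and 1654 at 200 and 220 min and between 1875 and 2422 on the other arrays. Probe sets of Hnrnpdl disagreed: 1420093_s_at rose by 0.47 ± 0.13 and 1428225_s_at fell by 0.35 ± 0.08 (limma adjusted p = 0.0154 and 0.00479, every probe set tested on its own), while its brightest changed by 0.00 ± 0.08. For Hnrnpc, 1418693_at rose by 0.27 ± 0.08 (limma adjusted p = 0.0257, every probe set tested on its own), while its brightest was not called. Which transcripts these probe sets read was not examined here.

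Among the SF3 genes, the 2 small subunits Sf3b5 and Sf3b6 rose most. Sf3b5 read 2651, 2714, 2616, 2780, 3057, 3250, 3269, 3265, 3314, 3203, 3478, 3457 and 3353 from 0 to 240 min, with all arrays from 80 min above all earlier ones. Its fitted change of 0.41 ± 0.06 was a 1.33-fold rise (limma adjusted p = 0.000194), the smallest p of the 52 genes, and it averaged 11.69 ± 0.06 from 80 min and 11.40 ± 0.04 up to 60 min (log2, SD, 9 and 4 arrays). Sf3b6, the subunit that contacts the branch point adenosine, read 2045, 2305, 2060, 2080, 2674, 2480, 2625, 2518, 2536, 2707, 2525, 2959 and 2811. It likewise had no overlap between those groups, its fitted change was 0.44 ± 0.08 (limma adjusted p = 0.000912), and 3 of its 4 probe sets rose on their own.

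Sf3b3 was called at the edge of the threshold, with a change of 0.17 ± 0.06 and a limma adjusted p of 0.0455. The call was lost without the 20, 40, 80, 120, 140, 160, 180, 200 or 240 min array, at 0.0550 to 0.119, and without the 200 and 220 min arrays together, at 0.0833. Sf3a2 and Sf3b4, named here after their values were seen, went the other way from Sf3b5 and Sf3b6 at the step. Sf3a2 ranged from 1148 to 1439 from 80 min and from 1457 to 1642 up to 60 min, and Sf3b4 from 1857 to 2196 and from 2258 to 2492, with step differences of -0.24 and -0.20 (limma adjusted p = 0.00266 and 0.00213). Neither passed the line, at 0.182 and 0.123. Sf3a1, Sf3a3, Sf3b1, the large branch site subunit, and Sf3b2 were not called by any test of their brightest probe set, with fitted changes of -0.01, 0.23, -0.09 and 0.17. When every probe set was tested on its own, other probe sets rose for Sf3b2 (2 of 4), Sf3a3 (1 of 2) and Sf3a1 (1 of 2). With averaged probe sets 5 of the 9 SF3 genes were called by the line, all rising, against 40.1% of all genes tested.

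Of the core snRNP genes, the Sm ring genes Snrpg and Snrpe rose. Snrpg read 4754, 4653, 4572, 4967, 5483, 5597, 5867, 5533, 6067, 5848, 5564, 5719 and 5984 from 0 to 240 min, and its arrays from 80 min were all above the earlier ones. The fitted change was 0.37 ± 0.07, a 1.29-fold rise (limma adjusted p = 0.000681), and both probe sets rose. Snrpe read 4264, 4413, 4378, 4542, 5050, 5129, 4933, 4987, 5389, 5408, 4605, 4991 and 5224, also without overlap, with the 200 min array the lowest of the later ones. Its fitted change was 0.25 ± 0.07 (limma adjusted p = 0.0106), which became 0.0509 without the untreated array.

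Snrpn, an imprinted gene that encodes a Sm protein most abundant in neurons, fell, at a dim level of 8.35 on the log2 scale. It ranged from 250 to 351.9 from 80 min and from 312.7 to 371.1 up to 60 min, so these groups overlapped, and its fitted change was -0.33 ± 0.11 (limma adjusted p = 0.0245). The call was lost without the 20, 220 or 240 min array, at 0.0626 to 0.0784, and without the 200 and 220 min arrays together, at 0.0659. Of the neuronal markers only Tubb3 passed the filter, and it was not called (0.13, adjusted p = 0.215). Snrpa1, Snrpb, Snrpb2, Snrpc and Snrpd3, which encode U1, U2 or Sm proteins, had fitted changes between 0.06 and 0.17 and were not called.

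Set side by side over the course, the SR, hnRNP and core snRNP groups had small and different medians. The median deviation of the 8 core snRNP genes from their own means was -0.08 at 0 min, 0.00 at 60 min, 0.14 at 160 min and 0.02 at 240 min (log2). That of the 18 hnRNP genes was -0.02, 0.05, 0.05 and 0.04 at the same times. It was lowest at 20 and 40 min, at -0.057 and -0.062, and was -0.03 and -0.04 at 200 and 220 min. The 9 SR genes, whose members moved in both directions, gave 0.07, 0.01, 0.05 and -0.02. The CLK median was 0.35 at 0 min, 0.05 at 60 min, -0.09 at 160 min, -0.27 at 200 min and -0.07 at 240 min.

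**Figure D4:**
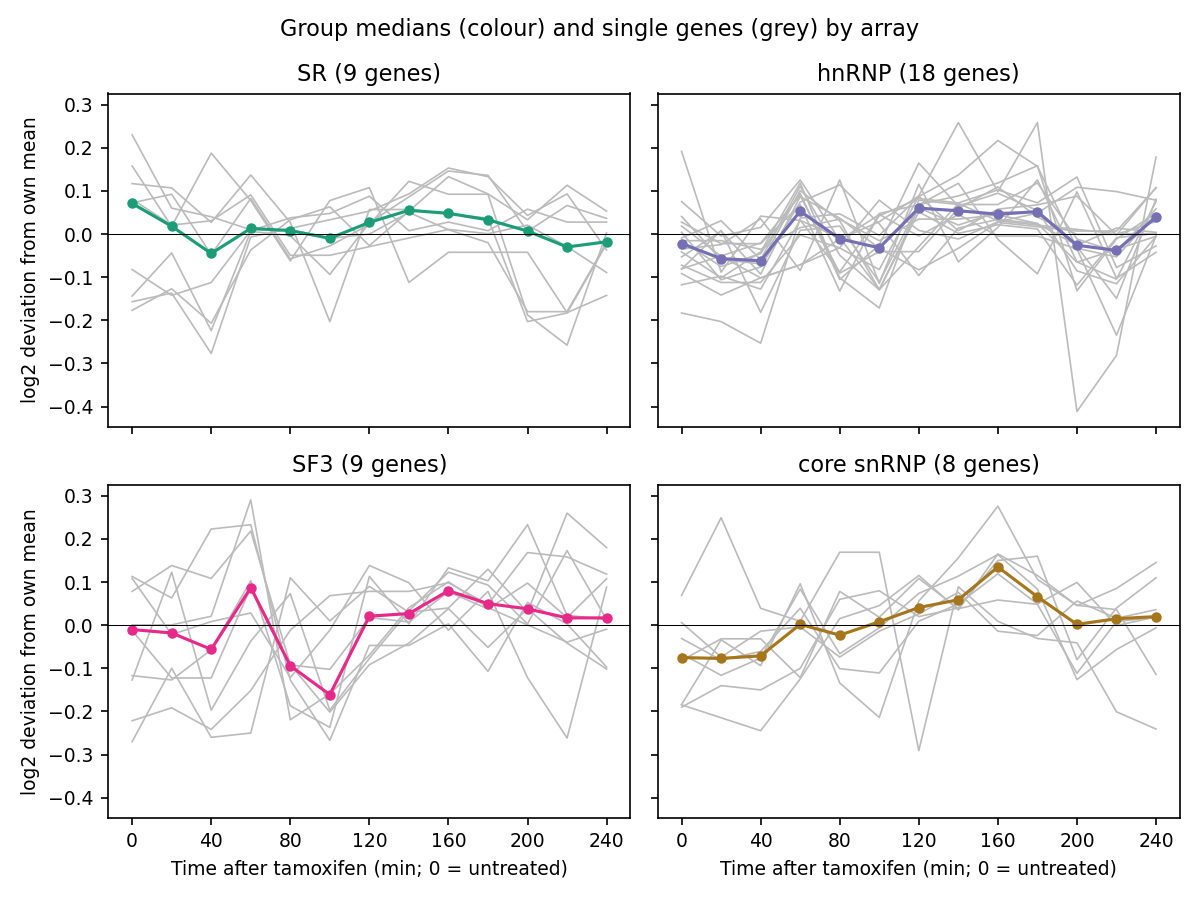
Deviation of each gene from its own mean over the 13 arrays (grey, log2) and the group median (colour) against time after tamoxifen, for the SR, hnRNP, SF3 and core snRNP groups. The core snRNP median is below zero at 0 to 40 min and highest at 160 min at 0.14, while the SR median stays between -0.05 and 0.07.

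The arrays from 80 min on differed from those up to 60 min for 18 of the 52 genes, 11 higher and 7 lower, or 34.6% against 41.7% of all genes tested, of which 21.7% were higher and 20.1% lower. By group these were 6 of 9 SR genes (4 higher, 2 lower), 3 of 4 CLK genes (all lower), 3 of 18 hnRNP genes (all higher), 4 of 9 SF3 genes (2 higher, 2 lower) and 2 of 8 core snRNP genes (both higher). Without overlap between the array groups were 6 genes higher from 80 min (Srsf9, Hnrnpul1, Sf3b5, Sf3b6, Snrpe and Snrpg) and 4 lower (Clk2, Clk3, Sf3a2 and Sf3b4), while 22.7% of all genes tested had no overlap, 11.7% higher and 11% lower. The position of this break was taken from an earlier look at the same arrays, so these counts describe where members change and give no independent support. In a line fitted to the 9 later arrays alone, limma called 0 of the 52 genes and 5 of all 7436. At an unadjusted p under 0.05 these were 5 and 1360.

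Late arrays against early ones gave 8 of 52 genes, or 15.4%, against 26.3% of all genes tested (15.2% higher and 11.1% lower). Sf3b5, Sf3b6, Snrpg, Hnrnpul1 and Srsf9 were higher late, by 0.27, 0.27, 0.24, 0.17 and 0.16 (log2), and Clk2, Clk3 and Clk4 were lower. The calls of Sf3b5, Snrpg and Hnrnpul1 held when any single array was left out, and that of Sf3b6 was lost without the 40 or 220 min array, at 0.0593 to 0.0636. The late and early arrays did not overlap for 6 genes that were higher late and 3 that were lower, against 22.3% of all genes tested, 13.7% higher and 8.57% lower. Set against the arrays at 100 to 160 min instead, the late arrays gave 0 of 52 and 0 of 7436 genes in limma. At an unadjusted p under 0.05 these were 2 and 425. The spline called 14 of 52, or 26.9%, against 24.9% of all genes tested.

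Early arrays against the untreated array gave 0 of 52 genes, as for all genes tested, where limma called 0 or 0%, and array weights gave 0 as well. At an unadjusted p under 0.05 there were 5 of 52 and 112 of 7436. The 5 were Neat1, at -1.26 (unadjusted p = 0.000455), Malat1, at -1.30 (0.0183), Srsf11, at -0.20 (0.0259), Clk4, at -0.33 (0.0303) and Hnrnph3, at -0.20 (0.0313), each with an adjusted p of 1.0. These 5 and Clk1 were the 6 of 52 genes whose untreated array lay above all 12 arrays after tamoxifen, which held for 6.87% of all genes tested. With 1 untreated array, a difference in that array and a difference in the cells cannot be told apart.

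**Figure D5:**
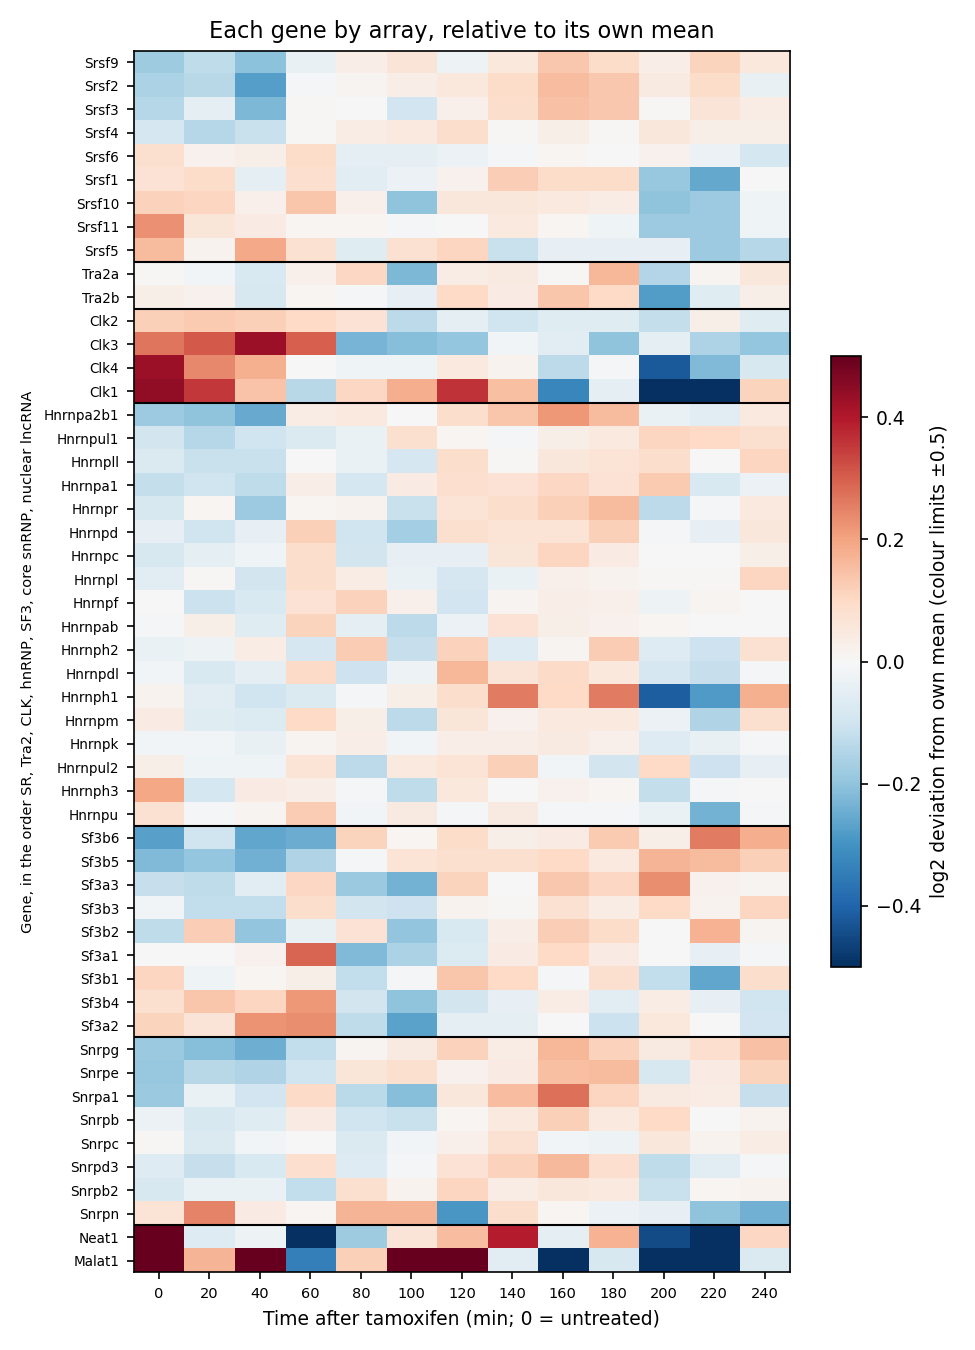
Each of the 52 genes (y axis, by family) on each array (x axis, minutes after tamoxifen), coloured by its log2 deviation from its own mean, with deviations beyond the colour limits drawn at the limit. Clk3 turns from high to low and Sf3b5 and Snrpg from low to high between the 60 and 80 min columns, and Malat1, Clk1, Clk4 and Hnrnph1 are lowest in the 200 and 220 min columns.

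The 200 and 220 min arrays were the 2 lowest for 8 of the 52 genes: Clk1, Clk4, Hnrnph1, Hnrnpu, Malat1, Sf3b1, Srsf1 and Srsf11, against 8.61% of all genes tested. Without these arrays the line called 15 of 52, 11 rising and 4 falling, and its share of all genes tested was 34.3%, against 39.9% with them. In that fit the falls of Malat1, Clk1, Srsf11 and Snrpn and the rise of Sf3b3 were no longer past the threshold.

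Other genes of the pathway were read from 9 lists, of whose 120 tested genes 49 were called by the line, 25 rising and 24 falling, against 39.9% of all genes tested. Kinases and phosphatases of SR proteins moved most often, 7 of 8. Srpk1 and Srpk2, which phosphorylate SR proteins in the cytoplasm, fell by 0.23 and 0.34 (log2), and Prpf4b and Top1 fell by 0.66 and 0.54. The phosphatase subunits moved in both directions: Ppp1cb fell by 0.26, and Ppp1ca and Ppp1cc rose by 0.19 and 0.25. Among 17 genes that assist U1 and U2, Luc7l fell 1.58-fold (-0.66, limma adjusted p = 0.000797), Luc7l2, Rbm25 and U2surp also fell, and the helicase gene Ddx39b rose.

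In 3 of the lists the genes called by the line all rose, while among all genes tested 22.3% rose and 17.6% fell. Of 8 Lsm genes, whose products form Sm-like rings, 4 rose and 0 fell, namely Lsm2 by 0.46 (limma adjusted p = 0.000335), Lsm3 by 0.40, Lsm7 by 0.29 and Lsm4 by 0.21. Of 12 tri-snRNP genes 3 rose and 0 fell, Snrnp40 by 0.45, Eftud2 by 0.33 and Prpf8 by 0.24. Of 6 paraspeckle protein genes 4 rose and 0 fell: Rbm14 by 0.54, Nudt21 by 0.43, Nono by 0.17 and Ewsr1 by 0.15, while Neat1 itself was not called. In the arrays from 80 min against those up to 60 min, the Lsm list had 5 genes called higher and 0 lower. The tri-snRNP list had 3 and 3, and the paraspeckle list 3 and 1. The lower one was Sfpq, at -0.16 (limma adjusted p = 0.0112). Among all genes tested, 21.7% were higher and 20.1% lower.

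The other lists were mixed. Of 20 genes of the Prp19 complex and the catalytic step 4 rose, among them Prpf19 by 0.42, and 3 fell. Of 11 exon junction and nonsense-mediated decay genes Alyref rose by 0.25, and Upf2, Pnn and Srrm2 fell by 0.90, 0.43 and 0.22. Of 28 other splicing regulators 5 rose and 8 fell, including Zranb2 by 0.82 and Qk by 0.54, and of 10 snRNP assembly genes Gemin2 rose by 0.22 and Tgs1 fell by 0.39.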

How the data were processed

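Biotin-labelled cRNA of 13 samples was hybridised to Affymetrix arrays, per the labels' protocols. The authors deposited 1 linear intensity per array for each of 22690 probe sets. Which software summarised and scaled them was not given in the sources used here. They were used as log2(intensity + 16), which understates the change of dim genes, with no further normalization, and scaling before deposit removes any change shared by most transcripts. The platform table named 1 gene for 20393 probe sets, several for 691 and none for 1606; symbols of 20364 were updated with a RefSeq table of GRCm38.p6. Each gene was read from its probe set of highest mean, and genes under the 40th percentile of mean level (log2 7.83) were left out. The symbols Hnrnpa1l2-ps2, Hnrnpa3, Snrpa, Snrpd1 and Snrpd2 appeared only on probe sets shared with other genes and were not analysed. All 13 columns were matched to samples by their labels.

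All tests used limma 3.58.1 (R 4.3.3) with lmFit and eBayes (trend) and were two-sided. Except as given below, they were adjusted by Benjamini-Hochberg over 7436 genes, with a threshold of 0.05. They were a line in time, a natural cubic spline with 3 degrees of freedom, late (180 to 240 min, 4 arrays) against early (20 to 80 min, 4 arrays) and early against untreated (1 array) in a fit with 4 levels, and 80 to 240 min (9 arrays) against 0 to 60 min (4 arrays). Where every probe set was tested on its own, the adjustment was over 20393 probe sets with no filter on low levels. In the alternative without the filter it was over 12394 genes. Neighbouring times stand in for replicates, and the single untreated array is taken to vary as the others do. No source says whether cultures were separate, so a p-value here measures the spread between arrays only, which may be technical. Precision is limited by the number of arrays, and residuals about the line had a median SD of 0.0873 (log2).

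The members, lists, break point and naming rule were chosen with earlier results of these data known. The rule named the CLK and Tra2 genes, Malat1 and Neat1, in each other group up to 5 called rises and 5 called falls of the line and the 2 smallest spline p-values, members with opposite called probe sets, and the 5 genes most like Malat1 and Clk1 by Spearman correlation. The remaining members are given to account for all of them. Alternatives were no filter, pseudocounts 1 and 64, quantile normalization, median centring, averaged or single probe sets, array weights, a Gapdh covariate, the step as a block, parts of the course and each array left out. Steps were tested on simulated data.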

Additional observations from a re-analysis of the deposited data

Results flagged for a closer look

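Within each window of 4 arrays, the lowest and highest array were compared with the others by Dixon's ratio, and 5 of 48 sets of values had an array past its 95% critical value of 0.829. Chance alone gives about 1 in 20. The 100 min array accounted for 4 of the 5. Tra2a stood at 10.24 (log2 level) there, against 10.47 to 10.51 at 120 to 160 min. The median deviation from the genes' own means at 100 min was -0.13 for the 2 Tra2 genes, against 0.041 to 0.075 on the other 3 arrays of that window, -0.032 for the 18 hnRNP genes, against 0.046 to 0.06, and -0.024 for all 52 genes, against 0.045 to 0.052. The SR median at 40 min was -0.045, against 0.008 to 0.018 on the other early arrays. These sets share genes and are not independent, and the cause was not tested.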

How the results depend on the processing

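No paired analysis was possible because the labels give no replicate numbers. The count of members called by the line was 18, against 31 with array weights (50.8% of all genes tested, against 39.9%). It was 0 with the 60 to 80 min step blocked and 0 in the 9 arrays from 80 to 240 min. With each array left out it ranged from 12 to 21, and the share of all genes from 31.2% to 41.5%. With the step blocked, limma called 1 of all genes, and at an unadjusted p under 0.05 12 members and 1846 of all genes. Late against early gave 8, against 5 with every probe set tested on its own, 24 with array weights (47.8% of all genes, against 26.3%), 4 without the 200 and 220 min arrays (8.53%) and 0 against 100 to 160 min, and 3 to 13 with each array left out. Without the 20, 40 or 220 min array that count was 4, 3 or 4, and without the 80 min array it was 13. The spline gave 14, against 30 with array weights (54.9% of all genes, against 24.9%) and 7 to 21 with each array left out. It gave 7, 8, 9 and 9 without the 0, 20, 40 or 180 min array (19.4%, 16.7%, 18.7% and 20.3% of all genes). The step gave 14 to 19 with each array left out, with 33.0% to 42.7% of all genes, and early against untreated 0 throughout. Among called results of named genes, the sign turned for the slopes of Clk3 (0.0268 per hour with the step as a block, 0.0233 in the 9 later arrays), Srsf2 (-0.0008) and Snrpe (-0.0003) in the 9 later arrays, and for the difference of Clk2 (0.0331) against 100 to 160 min, with adjusted p-values of 0.605, 0.726, 0.989, 0.995 and 0.882. Of slopes not called, Hnrnpa2b1 turned with the step blocked and in the 9 later arrays (-0.0028 and -0.0182 per hour), Tra2b without the 200 and 220 min arrays (0.0269), Neat1 without the untreated array (0.0019), and Hnrnpdl, whose slope was near zero, turned too. Of the 18 genes called by the line, 10 kept the call whichever single array was left out. Hnrnpll lost its step call without the 0, 20, 40, 120, 160, 180, 200 or 240 min array (adjusted p 0.057 to 0.124), and Srsf3 and Srsf5 lost theirs without the 0 or 40 min array (0.0604 to 0.0938 and 0.0637 to 0.0779). Srsf2 and Srsf11 lost the line with averaged probe sets (0.142 and 0.0559), and Hnrnpul1 lost late against early without the 200 and 220 min arrays (0.0814). The 4 h median of all genes was 0.019, 0.026 after quantile normalization and 0.013 after median centring. The causes of these differences between settings were not tested.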
